A study of Mus musculus with 12 samples.

Results

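Genes of arginine, polyamine and itaconate metabolism were followed across mouse dendritic cells, 7 in all: Arg1, Arg2, Nos2, Ass1, Acod1, Odc1 and Sat1. They were chosen by name for their place in these pathways, with earlier results of these data known. All 7 were found by Entrez identifier among the 11786 genes of the expression table. The dendritic cells came from mouse bone marrow cultured in GM-CSF, a myeloid growth factor, and were profiled by poly(A) RNA sequencing in 4 groups of 2 libraries. Wild-type cells and cells labelled ythdf1-/-, called KO-labelled here, were each sequenced without tumour material and after a night in contact with necrotic B16-OVA, ovalbumin-bearing melanoma cells of mouse origin, which is called lysate here. YTHDF1 is a cytoplasmic protein that binds the N6-methyladenosine mark on mRNA. The sources used here do not give the age, sex or strain of the mice, nor the part of Ythdf1 that is altered. Whether both libraries of a group are from different mice or cultures is not stated, and the p-values therefore reflect just the variation among these samples, possibly of technical origin.

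Arginine stands at a branch point in myeloid cells. Arginases split it into urea and ornithine, ornithine decarboxylase turns ornithine into the polyamine putrescine, and inducible nitric oxide synthase competes for the same arginine to make nitric oxide and citrulline, which argininosuccinate synthase helps to recycle. Itaconate is made in mitochondria from the citric acid cycle intermediate cis-aconitate by the product of Acod1, a gene known in macrophages for its induction by microbial ligands. Arginase 1 is known as a marker of alternatively activated macrophages and of myeloid cells that limit T cell responses.

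The table held regularized log2 levels, a log2 scale on which genes with few reads are pulled towards their mean, so that changes of low genes are understated. Values ran from 3.24 to 17.88 and library medians from 8.53 to 8.55. With no read counts in the table, library depth is unknown. Dendritic cell markers were present in every library, with Itgax between 10.97 and 11.52 and H2-Ab1 between 14.00 and 14.66. Others were low, with Clec9a between 5.44 and 5.66 and Kmo between 5.36 and 5.98, and Xcr1 and Cd209a were not among the genes of the table. Macrophage and monocyte markers were present as well, with Lyz2 between 16.64 and 17.26, Csf1r between 13.43 and 13.99 and Cx3cr1 between 5.44 and 6.65. These levels do not settle which cell types the cultures held. Ythdf1 itself did not differ by the test between genotype labels (log2 difference -0.03 ± 0.08 in untreated cells, adjusted p = 0.85, and -0.16 ± 0.08 in lysate-treated cells, adjusted p = 0.202), so the genotype groups are named by their labels. Changes below are log2 differences ± standard error from limma with 2 libraries a group, tested at a Benjamini-Hochberg adjusted p of 0.05 over the 11785 genes that passed a filter on low values.

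Promoter sequence was available from RefSeq (GRCm38.p6) for 4 of the 7 genes, Ass1, Odc1, Acod1 and Sat1, as windows of 300 bases from 250 before to 50 after the annotated start. That of Acod1 is shown because Acod1 was the gene of this set that differed most between genotype labels and is also the only one of the 4 whose window held a TATA box. It lies at chr14:103046762-103047061 on the plus strand, and capitals mark the matches to 7 short motifs that were searched on both strands.
Acod1: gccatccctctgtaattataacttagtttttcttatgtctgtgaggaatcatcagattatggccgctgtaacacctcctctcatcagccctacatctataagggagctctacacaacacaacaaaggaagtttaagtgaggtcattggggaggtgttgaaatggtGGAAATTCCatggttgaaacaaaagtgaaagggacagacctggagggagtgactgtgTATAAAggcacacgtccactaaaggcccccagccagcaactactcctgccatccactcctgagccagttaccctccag
The first capitalised run matches the NF-kB-like letters GGAANTTCC and starts at position -85 from the start site, and the second matches the TATA box letters TATAAA and starts at -28. The first set of letters was found in 0.928% and the second in 13.6% of 32851 mouse windows of the same length. The other letters searched were TGANTCA for AP-1, a repeated-GAAA motif for interferon regulatory factors, TTGCNNAA for C/EBP, CACGTG for the E-box and GGGCGG for the GC box. They were absent from this window and present in 7.81%, 3.44%, 10.8%, 7.15% and 35.7% of all windows, in that order. The window of Acod1 had 47% GC, against 74% for Ass1, 78% for Odc1 and 60.3% for Sat1, and these others each held at least 1 GC box. A match describes letters in the window and no binding was measured.

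Arg1 (Entrez 11846) encodes arginase 1, the cytosolic enzyme that splits arginine into urea and ornithine. Its log2 level was 7.03 and 6.88 in wild type alone and 8.76 and 8.69 in wild type with lysate. In KO-labelled cells it was 6.69 and 6.87 alone and 8.12 and 8.39 with lysate. Every lysate library lay above every library without lysate in both genotypes. The rise was 1.78 ± 0.11 in wild type (3.42-fold, adjusted p = 3.96e-07) and 1.48 ± 0.11 in KO-labelled cells (2.79-fold, adjusted p = 3.08e-06). Of the 11785 genes tested these were the fourth and the third highest rises, and both calls held under all 19 alternative settings.

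Arg1 was lower in KO-labelled than in wild-type cells with lysate, by the test, and both KO-labelled libraries lay below both wild-type ones there. The difference was -0.47 ± 0.11 (adjusted p = 0.0128), a level 1.38-fold lower. Leaving out either wild-type lysate library ended this call, at -0.43 without replicate 1 (adjusted p = 0.0888) and -0.51 without replicate 2 (adjusted p = 0.054). So did leaving out KO-labelled lysate replicate 1, at -0.33 (adjusted p = 0.201). Over all alternatives the adjusted p ranged from 0.00151 to 0.201. Without lysate the difference was -0.17 ± 0.11, with a 95% interval from -0.40 to 0.06 (adjusted p = 0.314). The lysate effects of the genotypes differed by -0.30 ± 0.15, with an interval from -0.62 to 0.03 (adjusted p = 0.643), so a difference in the size of the rise was not shown.

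Arg2 (Entrez 11847) encodes arginase 2, the mitochondrial form of the same activity. It lay at 6.71 and 6.68 in wild type alone, 6.62 and 6.65 in wild type with lysate, 6.61 and 6.54 in KO-labelled alone, and 6.74 and 6.49 in KO-labelled with lysate. In wild type both lysate libraries lay just below both untreated ones, and in KO-labelled cells the libraries overlapped. The lysate change was -0.06 ± 0.10 in wild type, with an interval from -0.27 to 0.15, and 0.04 ± 0.10 in KO-labelled cells, with an interval from -0.17 to 0.25. Between genotype labels it was -0.12 ± 0.10 without lysate (interval -0.33 to 0.09) and -0.02 ± 0.10 with it (interval -0.23 to 0.19). A rise of the size seen for Arg1 lies outside the intervals of Arg2 in both genotypes.

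**Figure D1:**
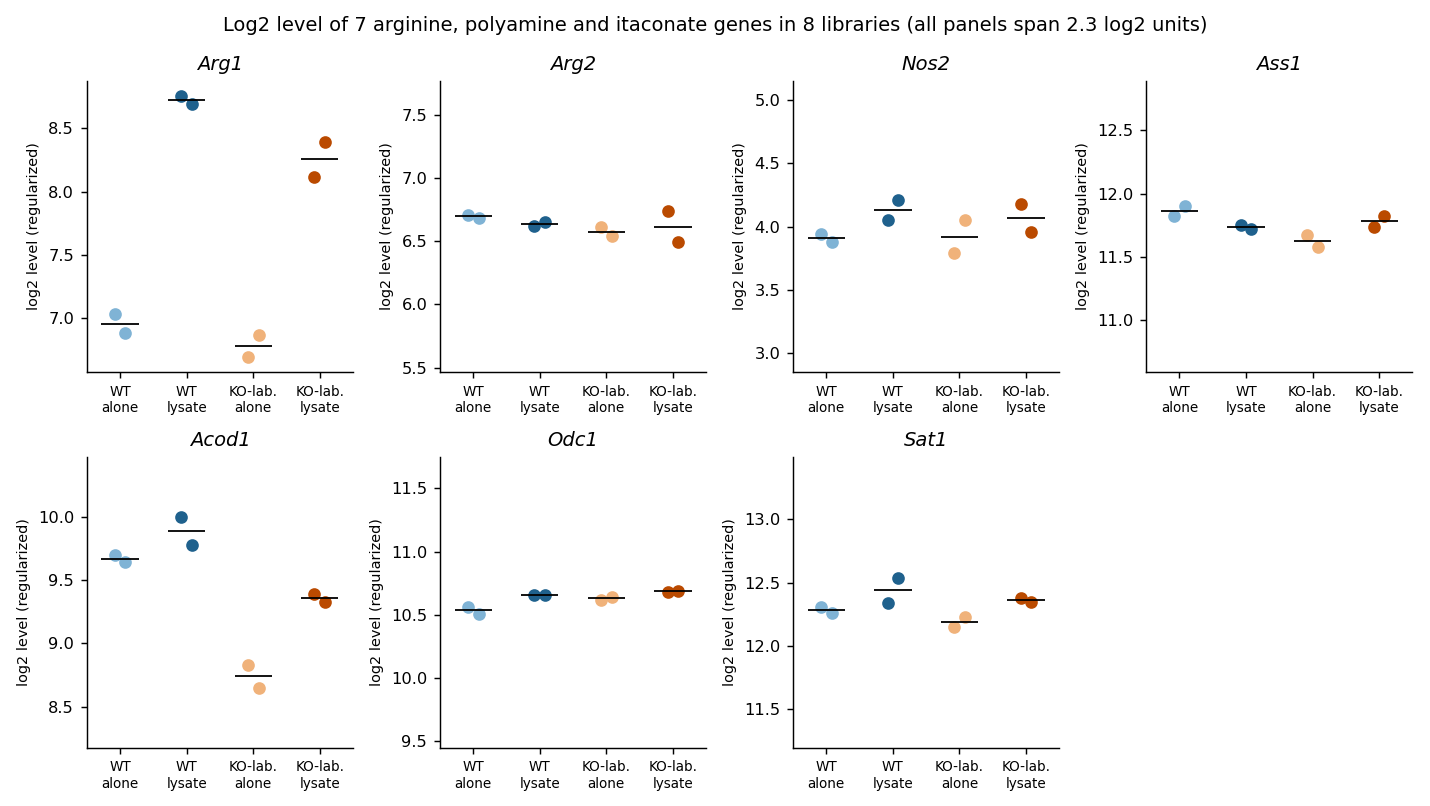
Regularized log2 level (y axis) of each of the 7 genes in the 8 libraries, by group (x axis); each point is a library, each bar the mean of 2, and all panels span the same range. Arg1 goes from 6.95 to 8.73 in wild type with lysate, Acod1 is lowest in the KO-labelled cells alone at 8.74, and the other 5 genes stay near a level line, as Sat1 does between 12.19 and 12.44.

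Nos2 (Entrez 18126) encodes inducible nitric oxide synthase, which converts arginine to nitric oxide and citrulline. It stood near the low end of the table in all 8 libraries, at 3.94 and 3.88 in wild type alone, 4.05 and 4.21 in wild type with lysate, 3.79 and 4.05 in KO-labelled alone, and 4.18 and 3.96 in KO-labelled with lysate. It passed the filter, a group mean of at least 4, only through the lysate groups, at 4.13 and 4.07. The lysate change was 0.22 ± 0.11 in wild type (interval -0.01 to 0.44, adjusted p = 0.159) and 0.15 ± 0.11 in KO-labelled cells (interval -0.08 to 0.38, adjusted p = 0.364). The KO-labelled minus wild-type difference was 0.01 ± 0.11 without lysate and -0.06 ± 0.11 with it, and the libraries overlapped in both. At such levels the scale compresses changes, and no difference was detectable here.

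Ass1 (Entrez 11898) encodes argininosuccinate synthase, which starts the return of citrulline to arginine. Its level was 11.82 and 11.90 in wild type alone and 11.75 and 11.72 with lysate, against 11.67 and 11.58 in KO-labelled alone and 11.74 and 11.82 with lysate. Lysate libraries thus lay below untreated ones in wild type and above them in KO-labelled cells. Groups did not overlap for 60.8% and 59.1% of all genes in these comparisons. Neither lysate change passed the test, at -0.12 ± 0.07 in wild type (adjusted p = 0.214) and 0.15 ± 0.07 in KO-labelled cells (adjusted p = 0.146). Untreated KO-labelled cells were lower than untreated wild type by -0.23 ± 0.07 (1.18-fold, adjusted p = 0.0295), and with lysate the difference was 0.04 ± 0.07 (interval -0.11 to 0.18).

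The genotype call of Ass1 without lysate was kept under 11 of 19 alternatives. It was lost without wild-type alone replicate 1 (-0.27, adjusted p = 0.0541), wild-type alone replicate 2 (-0.19, adjusted p = 0.173), or KO-labelled alone replicate 2 (-0.19, adjusted p = 0.151). Either KO-labelled lysate library mattered as well, with an adjusted p of 0.0585 without replicate 1 and 0.0584 without replicate 2, both at -0.23. It was also lost with the replicate number as a block (-0.23, adjusted p = 0.0585), with no mean-variance trend (adjusted p = 0.0574) and in a fit of only the groups compared (adjusted p = 0.083). The alternatives ranged from 0.0017 to 0.173 in adjusted p.

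Acod1 (Entrez 16365), also known as Irg1, encodes aconitate decarboxylase 1, the enzyme that makes itaconate. Its level was 9.70 and 9.64 in wild type alone, 10.00 and 9.78 in wild type with lysate, 8.83 and 8.65 in KO-labelled alone, and 9.39 and 9.33 in KO-labelled with lysate. All 4 KO-labelled libraries lay below all 4 wild-type libraries, whatever the treatment. Without lysate the KO-labelled cells were lower by -0.93 ± 0.09 (1.9-fold, adjusted p = 2.80e-05), which put Acod1 38th from the lowest of the 11785 genes. With lysate they were lower by -0.53 ± 0.09 (1.45-fold, adjusted p = 0.00233). Both calls were kept under all 19 alternatives, from -1.02 to -0.84 without lysate and from -0.64 to -0.42 with it.

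Acod1 rose with lysate in KO-labelled cells by 0.62 ± 0.09 (1.54-fold, adjusted p = 6.17e-04), a call kept under all 19 alternatives. In wild type the change was 0.22 ± 0.09 (interval 0.03 to 0.42, adjusted p = 0.0937), with both lysate libraries above both untreated ones. The estimate was 0.11 when wild-type lysate replicate 1 was left out (adjusted p = 0.521). It passed the threshold when wild-type lysate replicate 2 was left out (0.33, adjusted p = 0.0428) and when KO-labelled alone replicate 1 (0.22, adjusted p = 0.0494) or 2 was (0.22, adjusted p = 0.0488). It also passed with a crossed replicate block (0.22, adjusted p = 0.0474), and over all alternatives the adjusted p went up to 0.521. The lysate effects differed between genotype labels by 0.40 ± 0.13 (interval 0.12 to 0.67, unadjusted p = 0.00801, adjusted p = 0.417), a difference that did not pass correction over all genes. These comparisons share groups: the untreated KO-labelled libraries enter both the genotype difference without lysate and the lysate change of the KO-labelled cells.

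**Figure D2:**
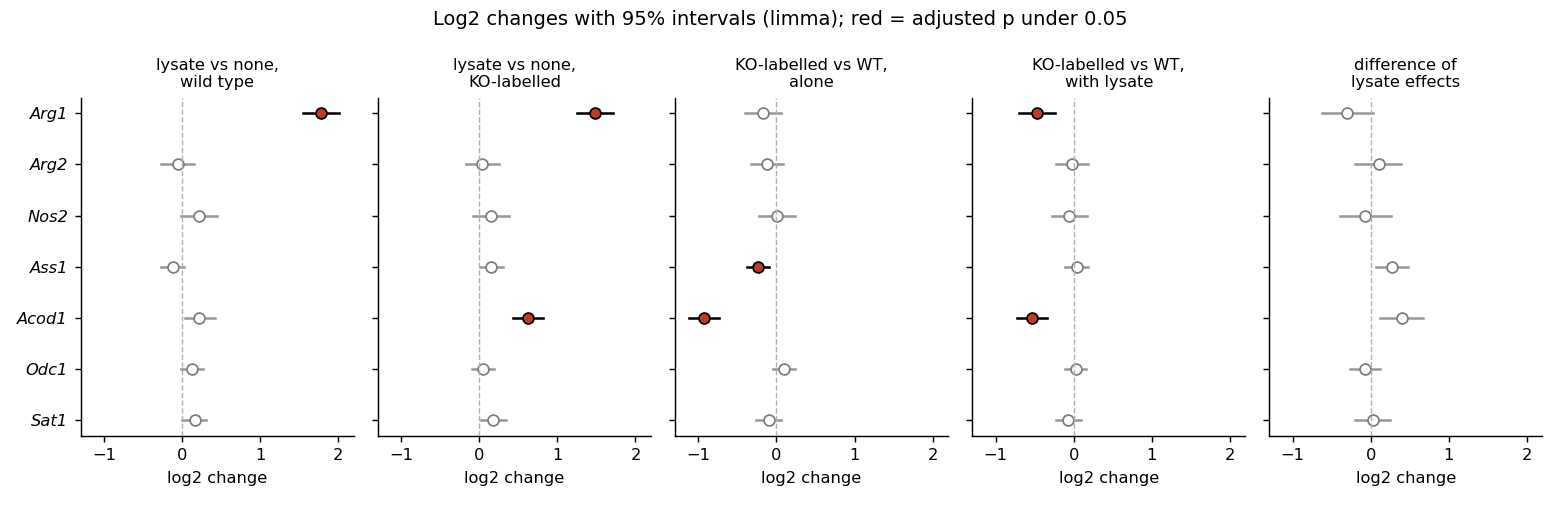
Log2 change (x axis) of each gene (y axis) in the 5 comparisons; points are limma estimates, lines 95% intervals and red points passed an adjusted p of 0.05. Arg1 passed in 3 comparisons, Acod1 in 3 and Ass1 in 1, and in the difference of lysate effects the interval of Acod1 ran from 0.12 to 0.67 without passing correction.

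The polyamine genes of the set moved little. Odc1 (Entrez 18263) encodes ornithine decarboxylase, the first and rate-limiting enzyme of polyamine synthesis. It lay at 10.56 and 10.51 in wild type alone, 10.66 and 10.66 in wild type with lysate, 10.62 and 10.64 in KO-labelled alone, and 10.68 and 10.69 in KO-labelled with lysate. The libraries did not overlap between groups in any of the 4 pairwise comparisons, yet the changes were small. Lysate gave 0.12 ± 0.06 in wild type (interval -0.01 to 0.26, adjusted p = 0.183) and 0.05 ± 0.06 in KO-labelled cells (interval -0.09 to 0.19, adjusted p = 0.62). Groups did not overlap for 60.8% and 59.1% of all genes in these lysate comparisons, so non-overlap alone is common in this table. Between genotype labels the difference was 0.10 ± 0.06 without lysate and 0.03 ± 0.06 with it, where 52.7% and 60.6% of all genes did not overlap.

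Sat1 (Entrez 20229) encodes spermidine/spermine N1-acetyltransferase 1, which acetylates polyamines for export or breakdown. It lay at 12.31 and 12.26 in wild type alone, 12.34 and 12.54 in wild type with lysate, 12.15 and 12.23 in KO-labelled alone, and 12.38 and 12.35 in KO-labelled with lysate. Lysate libraries lay above untreated ones in both genotypes without passing the test, by 0.16 ± 0.07 in wild type (adjusted p = 0.149) and 0.18 ± 0.07 in KO-labelled cells (adjusted p = 0.114). The wild-type value rests on replicate 2 with lysate, at 12.54, since it was 0.06 without that library (adjusted p = 0.634) and 0.25 without replicate 1 with lysate (adjusted p = 0.0623). It was 0.07 with the GC and length trend removed (adjusted p = 0.325). Between genotype labels the intervals ran from -0.26 to 0.06 without lysate and from -0.23 to 0.09 with it. Sat1 passed the test for lysate in KO-labelled cells after a correction of every library for transcript GC content and length (0.15, adjusted p = 0.0456), among alternatives that went up to 0.392, and Ass1 did so too (0.21, adjusted p = 0.00434).

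Counted over the 7 genes, Arg1 was higher with lysate in wild type and Arg1 and Acod1 in KO-labelled cells, which is 1 and 2 of 7, where 10.2% and 8.28% of all genes tested were called higher. Acod1 and Ass1 were lower in KO-labelled cells without lysate, 2 of 7 against a background of 9.23%, and Acod1 and Arg1 with lysate, 2 of 7 against 5.45%. Because the 7 genes were chosen with earlier results of these data known, these counts describe the set and are no test of it. Single genes set these counts, and the median change of the 7 was 0.16 and 0.15 for lysate in wild type and KO-labelled cells and -0.12 and -0.06 between genotype labels without and with lysate, against medians within 0.01 of 0 over all genes. In the difference of lysate effects, limma called 0 of 7 where 0.110% of all genes were called.

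The pathways around these genes were read from 8 lists holding 80 further genes, of which 68 were in the table. With lysate 12 rose and 7 fell in wild type (19 in all, where 21.5% of all genes were called, 10.2% higher and 11.3% lower) and 12 rose and 5 fell in KO-labelled cells (17 in all, where 15.2% of all genes were called, 8.28% higher and 6.92% lower). The median change of the 68 was 0.07 in wild type and 0.00 in KO-labelled cells. In wild type only 8 genes were called when wild-type alone replicate 2 was left out and 9 when wild-type lysate replicate 1 was, and 8 of the 19 calls were kept under every alternative. In KO-labelled cells leaving out KO-labelled lysate replicate 1 gave 7 and leaving out its replicate 2 gave 6, and 5 of the 17 calls were kept under every alternative.

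The 8 lists hold 4 to 19 measured genes each, and their lysate counts stand against 10.2% of all genes higher and 11.3% lower in wild type and 8.28% higher and 6.92% lower in KO-labelled cells. At these sizes the counts describe single genes and not the lists. Among arginine transporters, 1 of 6 genes rose with lysate in wild type, and 1 rose and 1 fell in KO-labelled cells. The riser in both was Slc7a2, the cationic amino acid transporter CAT2 that carries arginine into myeloid cells. It went from 9.55 and 9.45 to 10.06 and 9.89 in wild type and from 9.18 and 9.11 to 9.74 and 9.72 in KO-labelled cells. The rise was 0.47 ± 0.08 (adjusted p = 0.00128) and 0.59 ± 0.08 (adjusted p = 3.57e-04), kept under every alternative in both. Slc7a2 was also lower in untreated KO-labelled than wild-type cells (-0.36 ± 0.08, adjusted p = 0.00753), a call lost without wild-type alone replicate 1 (-0.31, adjusted p = 0.0606, the highest of the alternatives). Slc7a1, which encodes the constitutive transporter CAT1, changed by 0.11 ± 0.08 and 0.13 ± 0.08 with lysate, and its intervals, -0.07 to 0.29 and -0.04 to 0.31, lie below the estimates for Slc7a2.

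Around nitric oxide and citrulline, Nos1, Nos3, Otc and Ddah1 were not among the genes of the table, and of the 7 that were, 1 rose and 2 fell in wild type and 2 rose and 1 fell in KO-labelled cells with lysate. Padi2, which converts arginine residues of proteins to citrulline, rose by 0.76 ± 0.08 in wild type (adjusted p = 5.57e-05) and by 0.70 ± 0.08 in KO-labelled cells (adjusted p = 1.53e-04). Its relative Padi4, known for its part in neutrophil chromatin release, was lower in KO-labelled than in wild-type cells without lysate (-0.73 ± 0.09, adjusted p = 1.56e-04). Those calls of Padi2 and Padi4 were kept under every alternative. Padi4 was also lower in KO-labelled cells with lysate (-0.45, adjusted p = 0.0071), a call lost under 2 of 19 alternatives. Tetrahydrobiopterin is the cofactor of nitric oxide synthases, and of 6 measured genes of its synthesis 1 fell in wild type and 2 rose and 1 fell in KO-labelled cells. Spr, sepiapterin reductase at the end of its synthesis, fell by 0.49 ± 0.09 on the log2 scale in wild type (adjusted p = 0.00185) and by 0.62 ± 0.09 in KO-labelled cells (adjusted p = 5.05e-04), kept under every alternative. Gch1, the first enzyme of that route, changed by 0.23 ± 0.10 in wild type (adjusted p = 0.118). In KO-labelled cells it rose by 0.39 ± 0.10 (adjusted p = 0.0187), a call that ended when KO-labelled alone replicate 2 was left out (0.28, adjusted p = 0.076), or the KO-labelled lysate library 1 (0.41, adjusted p = 0.112) or 2 (0.37, adjusted p = 0.133).

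**Figure D3:**
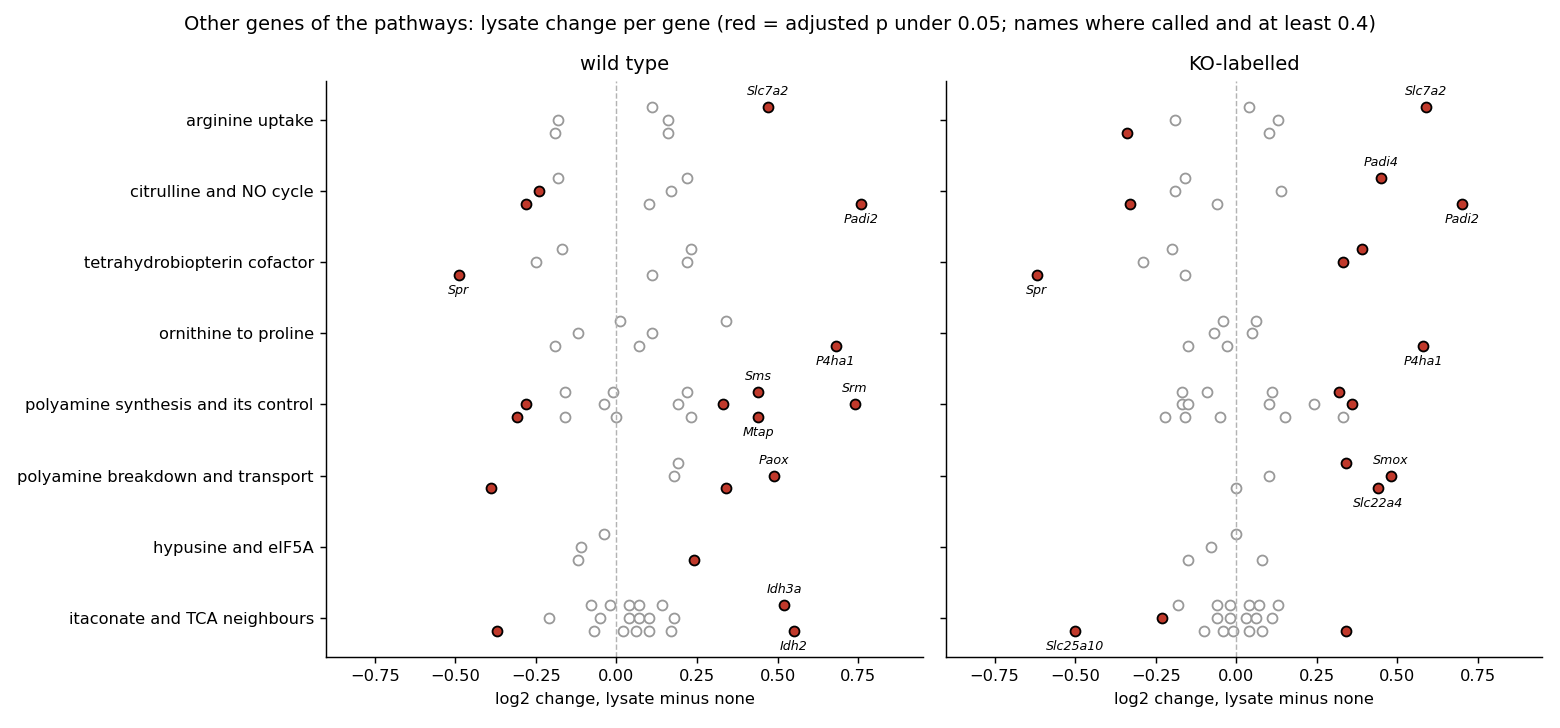
Lysate change (x axis, log2) of each of the 68 pathway genes, by list (y axis), in wild type (left) and KO-labelled cells (right); points are genes, red where the adjusted p was under 0.05. Slc7a2, Padi2 and P4ha1 lie to the right and Spr to the left in both panels, while Srm, at 0.74 in wild type, is called there alone.

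Downstream of ornithine, polyamine synthesis and its control held 14 measured genes, of which lysate raised 4 and lowered 2 in wild type and raised 2 in KO-labelled cells. Srm, spermidine synthase, stood at 6.94 and 7.05 in wild type alone and at 7.67 and 7.80 with lysate. In KO-labelled cells it stood at 7.18 and 7.04 alone and at 7.29 and 7.59 with lysate. The rise in wild type was 0.74 ± 0.11 (adjusted p = 5.39e-04), kept under every alternative, and the change in KO-labelled cells was 0.33 ± 0.11 (adjusted p = 0.0598). The difference of the lysate effects of Srm was -0.41 ± 0.15 (adjusted p = 0.479), so a genotype dependence was not shown. Sms, spermine synthase, rose by 0.44 ± 0.11 in wild type (adjusted p = 0.0112), a call lost without wild-type alone replicate 2 (0.34, adjusted p = 0.111) or wild-type lysate replicate 1 (0.38, adjusted p = 0.104).

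Among 5 measured genes of polyamine breakdown and transport, 2 rose and 1 fell in wild type and 3 rose in KO-labelled cells. Paox, the oxidase of acetylated polyamines, rose by 0.49 ± 0.09 in wild type (adjusted p = 0.00254), kept under every alternative. In KO-labelled cells Paox rose by 0.34 (adjusted p = 0.0241), a call lost under 3 of 19 alternatives. Smox, spermine oxidase, stood at 11.14 and 11.28 in wild type alone and 11.39 and 11.39 with lysate, against 11.27 and 11.19 in KO-labelled alone and 11.73 and 11.69 with lysate. It rose in KO-labelled cells by 0.48 ± 0.07 (adjusted p = 6.11e-04), kept under every alternative, and changed by 0.18 ± 0.07 in wild type (adjusted p = 0.0851). The lysate effects of Smox differed by 0.30 ± 0.10 between genotype labels (interval 0.09 to 0.52, adjusted p = 0.425). Eif5a, the translation factor that carries hypusine made from spermidine, rose by 0.24 ± 0.06 in wild type (adjusted p = 0.0159), and was the 1 of 4 genes called in its list. That call was lost without wild-type alone replicate 1 (adjusted p = 0.0655) or replicate 2 (adjusted p = 0.0643) and without wild-type lysate replicate 1 (adjusted p = 0.0719, the highest) or replicate 2 (adjusted p = 0.0516).

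On the way from ornithine to proline and collagen, 1 of 7 genes rose with lysate in each genotype. It was P4ha1, a prolyl hydroxylase subunit, at 0.68 ± 0.07 in wild type (adjusted p = 2.92e-05) and 0.58 ± 0.07 in KO-labelled cells (adjusted p = 1.47e-04). Prodh, proline dehydrogenase, was higher in KO-labelled than wild-type cells without lysate by 0.61 ± 0.10 (adjusted p = 0.00147). These calls were kept under every alternative. With lysate Prodh was also higher in KO-labelled cells, by 0.56 (adjusted p = 0.00453), a call lost under 1 of 19 alternatives. Oat, the aminotransferase that moves ornithine towards proline, changed by 0.11 ± 0.07 in wild type (adjusted p = 0.309) and -0.15 ± 0.07 in KO-labelled cells (adjusted p = 0.176).

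Near itaconate in the citric acid cycle, the lysate raised 2 and lowered 1 of 19 genes in wild type, and 1 rose and 2 fell in KO-labelled cells. That is 3 of 19 called in each, where 21.5% and 15.2% of all genes were called, so the list as a whole was near or below the background. Idh2 and Idh3a, mitochondrial isocitrate dehydrogenase genes, rose in wild type by 0.55 ± 0.08 (adjusted p = 5.47e-04) and 0.52 ± 0.08 (adjusted p = 8.81e-04), both kept under every alternative. Idh3a was also the 1 that rose in KO-labelled cells, by 0.34 (adjusted p = 0.0147), a call lost under 2 of 19 alternatives. Between genotype labels 1 of the 19 was higher and 0 lower without lysate, where 7.02% and 9.23% of all genes were. With lysate 0 were higher and 3 lower, where 7.44% and 5.45% of all genes were. The 3 were Idh1 (-0.26, adjusted p = 0.0227), Idh2 (-0.28, adjusted p = 0.0414) and Suclg2 (-0.36, adjusted p = 0.0144), each lost under some alternatives. Sdha, the catalytic subunit of succinate dehydrogenase, which itaconate inhibits, differed between genotype labels by -0.06 ± 0.06 without lysate (interval -0.20 to 0.08) and by -0.10 ± 0.06 with it (interval -0.24 to 0.04). The genotype difference of Acod1 lies outside these intervals in both treatments. As Sdha was named after its values were seen, that is a description and no test. These are mRNA levels, and the activity of succinate dehydrogenase was not measured.

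Between genotype labels, 5 of the 68 pathway genes were higher and 3 lower without lysate (8 in all, where 16.2% of all genes were called, 7.02% higher and 9.23% lower), and 3 were higher and 8 lower with it (11 in all, where 12.9% of all genes were called, 7.44% higher and 5.45% lower). In untreated cells 3 were called when wild-type alone replicate 1 was left out and 5 when either KO-labelled lysate library was. In lysate-treated cells leaving out wild-type lysate replicate 1 gave 3, its replicate 2 gave 4, KO-labelled lysate replicate 1 gave 1 and its replicate 2 gave 3. Prodh and Padi4 without lysate and P4ha2, another prolyl hydroxylase subunit (0.51 ± 0.08, adjusted p = 0.00197), with lysate were the 3 pathway calls kept under every alternative. In the difference of lysate effects limma called 0 of the 68, where 0.110% of all genes were called.

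Markers of other cells differed in the same libraries. In bulk RNA, fewer cells of a type and less RNA per cell cannot be told apart. Of 11 neutrophil markers in the table, 10 were lower in KO-labelled cells without lysate and 10 with it. Over all genes, 9.23% and 5.45% were lower in these comparisons. S100a8, a calprotectin subunit, was at -1.68 ± 0.15 (adjusted p = 1.66e-05) and -1.41 ± 0.15 (adjusted p = 2.02e-04). The mean level of the list was 9.51 to 9.55 in wild type alone and 9.35 to 9.46 with lysate, against 8.46 to 8.52 in KO-labelled alone and 8.37 to 8.44 with lysate, and the defining gene Ly6g was not among the genes of the table. Of 14 macrophage and monocyte markers 9 were lower in KO-labelled cells without lysate and 5 with it, against the same shares of all genes. Their list means were 11.82 to 11.85 and 11.65 in wild type without and with lysate. In KO-labelled cells they were 11.39 to 11.41 and 11.37 to 11.43. These lists were lower in the same groups as Acod1, and their part in its difference was not tested.

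Conventional dendritic cell markers moved in the same comparisons. Of the 12 measured, 7 were lower with lysate in each genotype, where Arg1 rose. Over all genes, 11.3% were lower in wild type and 6.92% in KO-labelled cells. H2-Ab1, a class II antigen presentation gene, fell by 0.54 ± 0.07 on the log2 scale in both (adjusted p = 2.74e-04 in wild type and 3.27e-04 in KO-labelled cells). In untreated KO-labelled against wild-type cells 4 of the 12 were higher and 1 lower, where 7.02% and 9.23% of all genes were. The 1 lower was Itgax, at -0.33 ± 0.08 (adjusted p = 0.0119). That call was lost without wild-type alone replicate 2 (-0.32) or KO-labelled alone replicate 2 (-0.24). With lysate 4 were higher and 0 lower, against 7.44% and 5.45% of all genes. Acod1 was lower in both comparisons. Batf3, a transcription factor of cross-presenting dendritic cells, was higher by 0.84 ± 0.13 in untreated cells (adjusted p = 7.79e-04). In lysate-treated cells it was higher by 0.73 ± 0.13 (adjusted p = 0.0037), a call that ended when KO-labelled lysate library 1 (0.78, adjusted p = 0.0573) or 2 (0.68, adjusted p = 0.059) was left out. The list mean was 11.05 to 11.09 in wild type alone and 10.83 to 10.87 with lysate, and 11.19 to 11.24 in KO-labelled alone and 10.97 to 11.01 with lysate. The part of these markers in the changes of Arg1 and Acod1 was not tested.

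**Figure D4:**
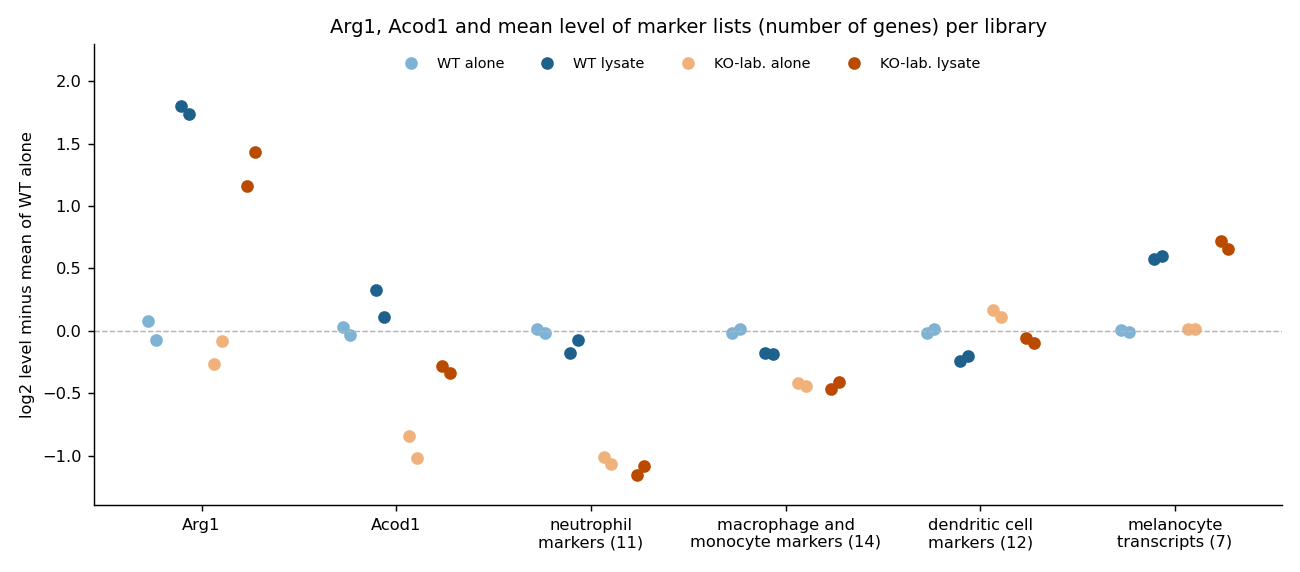
Arg1, Acod1 and the mean of 4 marker lists in each library, as log2 level minus the mean of wild type alone (y axis); points are libraries, coloured by group, and numbers in brackets are genes per list. Neutrophil and macrophage markers are lower in KO-labelled cells, as is Acod1, and the mean of the melanocyte transcripts is higher in all lysate libraries, as is Arg1.

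Transcripts listed for melanocytes moved with lysate. Of the 7 measured, 6 rose and 1 fell in each genotype. Over all genes, 10.2% rose and 11.3% fell in wild type, and 8.28% and 6.92% in KO-labelled cells. The list mean was 7.85 to 7.87 in wild type alone and 8.43 to 8.46 with lysate. In KO-labelled cells it was 7.87 alone and 8.52 to 8.58 with lysate. Among those that rose, Gpnmb and Mitf were high without tumour material. In wild type alone Gpnmb was at 16.13 and 16.17 and Mitf at 9.97 and 9.84. The count and the list mean therefore do not measure tumour RNA alone. Dct, a melanin enzyme, rose by 1.13 ± 0.09 and 1.31 ± 0.09, while Tyr, Mlana and Sox10 were not among the genes of the table. The 1 that fell was Kit, a receptor also carried by mast cells and progenitors, at -0.35 ± 0.07 in wild type (adjusted p = 0.00428) and -0.36 ± 0.07 in KO-labelled cells (adjusted p = 0.00479), the latter lost without KO-labelled lysate replicate 2 (-0.29, adjusted p = 0.0916). The list mean was higher in the same libraries as Arg1, and the transcripts' part in the rise of Arg1 and of the pathway genes was not tested.

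Genes that mark alternative activation of macrophages went in both directions with lysate. Of the 11 measured, lysate raised 2 and lowered 5 in wild type, where 10.2% of all genes were called higher and 11.3% lower. In KO-labelled cells it raised 2 and lowered 2, where the shares over all genes were 8.28% and 6.92%. Mrc1, the mannose receptor, rose in both by 0.86 ± 0.08 (adjusted p = 1.14e-05) and 0.55 ± 0.08 (adjusted p = 5.25e-04). Irf4, a transcription factor of that programme, fell by 0.48 ± 0.07 in wild type (adjusted p = 6.54e-04). It fell by 0.37 ± 0.07 in KO-labelled cells (adjusted p = 0.00455), a call lost without KO-labelled lysate replicate 2 (-0.33, adjusted p = 0.0741, the highest). Of 11 inflammatory activation genes, 7 were lower and 1 higher in KO-labelled cells without lysate, where 9.23% of all genes were lower and 7.02% higher. With lysate 3 were lower and 1 higher, where the shares over all genes were 5.45% and 7.44%. Il1b, interleukin 1 beta, was lower in untreated KO-labelled than wild-type cells by -0.85 ± 0.07 (adjusted p = 5.45e-06), in the comparison where Acod1 was lower too. The 1 higher gene was Il12b, by 0.37 ± 0.08 without lysate (adjusted p = 0.00635) and 0.60 ± 0.08 with it (adjusted p = 5.31e-04). Its call without lysate was lost without wild-type alone replicate 2 (0.30). With lysate in wild type Il1b changed by -0.44 ± 0.07 (adjusted p = 7.67e-04) and Acod1 by 0.22 ± 0.09 (adjusted p = 0.0937). Lysate raised 3 and lowered 3 of the 11 in wild type and raised 3 and lowered 1 in KO-labelled cells, against the lysate shares above.

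The genes whose levels were most like those of the called members were read from Pearson r over the 8 libraries, as a description, since libraries of a group lie together. Nearest to Arg1 were Gpsm2 (r = 0.997), Atp2a2 (r = 0.995) and Il1rn (r = 0.994). Il1rn encodes the interleukin 1 receptor antagonist and rose by 1.00 ± 0.07 in wild type and 0.98 ± 0.07 in KO-labelled cells, Gpsm2 by 0.79 ± 0.08 and 0.72 ± 0.08, and Atp2a2, the calcium pump SERCA2, by 0.52 ± 0.07 and 0.46 ± 0.07. All these rises were smaller than those of Arg1. Near to Acod1 were Slfn1 (r = 0.990) and Tm6sf1 (r = 0.990). Slfn1, a Schlafen family gene, stood at 10.44 and 10.39 in wild type alone and at 9.82 and 9.83 in KO-labelled alone, a difference of -0.59 ± 0.07 (adjusted p = 9.36e-05). Nearest to Ass1 were Tln1 (r = 0.982), which encodes the adhesion protein talin 1, Furin (r = 0.976), a proprotein convertase, and Urgcp (r = 0.966).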

How the data were processed

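RNA-seq libraries (8, in 4 groups of 2) were grouped by sample title; 4 immunoprecipitation samples were not analysed here. The authors deposited log2 values per Entrez gene, read as DESeq2's regularized logarithm of counts from the table's name and the submitters' processing notes, which name STAR, deepTools, DESeq2 and mm9 without versions. The sources used here do not give the counting tool, strand setting, annotation or gene filter. Identifiers were matched to GRCm38.p6 symbols for 11744 genes and 42 had none. That assembly differs from mm9, so it served for names and promoter windows, and transcript GC content and length came from GENCODE transcripts for 97.5% of genes.

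Genes with a largest group mean of at least 4 were kept, which removed 1. Tests used limma 3.58.1 under R 4.3.3 (group means of all 8 libraries, eBayes with trend, two-sided, Benjamini-Hochberg at 0.05), with 4 residual and 9.33 prior degrees of freedom. The fit was also run on simulated data with independent noise and spreads shuffled over genes. Such data lack the deviations linked to GC content, so the run does not show how well the p-values hold here. Intervals are 95%, for single genes, unadjusted. Named were all 7 members, pathway genes called in some comparison, markers, and the 3 genes nearest by Pearson r to each called member (predicted genes left out); Slc7a1, Oat and Sdha, with no call, were added for their roles after their values were seen, and some genes are not reported here. Members and lists were chosen with earlier results of these data known. Alternatives were a replicate block, other filters, scalings, variance models and fits, removal of GC and length trends, and leaving out each library, which assumes for a lone library the spread of the others. A crossed replicate block was added after seeing the data. Figures were drawn with Python 3.11.15.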

Additional observations from a re-analysis of the deposited data

Results flagged for a closer look

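Ass1 was singled out because all lysate libraries lay below the untreated ones in wild type and above them in KO-labelled cells. Such separation is common, since groups did not overlap for 60.8% of all genes in wild type and 59.1% in KO-labelled cells. The difference of its lysate effects was 0.27 ± 0.09 (interval 0.07 to 0.48, unadjusted p = 0.0125). The adjusted p was 0.451, so the difference did not pass correction over all genes, and under the alternatives it ranged from 0.23 to 0.32 with adjusted p from 0.0633 to 0.998.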

How the results depend on the processing

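Among the recomputed values of the 7 genes, 634 stayed on their side of the threshold, 11 lost and 7 gained a call, and none changed direction while called. All calls of Acod1 and the lysate calls of Arg1 held. With 2 libraries a group and unknown depth, small changes such as those of Odc1, Sat1 and Nos2 could not be resolved.

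Removal of the GC and length trend gave 4 of the 7 genes called for lysate in KO-labelled cells, and 2909 of all genes against 1792, 3052 against 1915 between genotypes without lysate, 2523 against 1519 with lysate and 67 against 13 for the difference of lysate effects. With the replicate block in addition these were 2707, 2888, 2323 and 54. Pathway genes called between genotypes with lysate were 18 against 11 in both. A fit of only the groups compared gave 1 of the 7 genes, 5 pathway genes and 1196 genes between genotypes without lysate; no mean-variance trend gave 1 of the 7 there and 1 gene for the difference of lysate effects, where a filter at 6 gave 8.

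The replicate numbers were not taken as pairs, since within-group deviations of same-numbered libraries correlated between -0.61 and 0.26 across groups. The difference between replicates 1 and 2 had a Spearman correlation with transcript GC content of -0.70 in wild type alone and 0.62 in KO-labelled alone. With lysate it was -0.25 in wild type and -0.11 in KO-labelled cells. The untreated libraries enter both lysate comparisons and the genotype comparison without lysate. The replicate block left 1 of the 7 genes between genotypes without lysate, by loss of Ass1, and 1 gene for the difference of lysate effects, and changed no other call of the 7 genes. A crossed block, with numbers swapped in untreated KO-labelled cells, called 2 of the 7 genes for lysate in wild type, 2919 genes for lysate in KO-labelled cells, 20 pathway genes and 2638 genes between genotypes with lysate and 54 for the difference.

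Leaving out 1 library gave 1 to 2 of the 7 genes for lysate in wild type and in each genotype comparison. Pathway counts ran from 8 to 21 and 6 to 18 for lysate in wild type and KO-labelled cells, and from 3 to 9 and 1 to 16 between genotypes without and with lysate. Counts of all genes ran, in that order, from 1031 to 3152, 564 to 2275, 1174 to 1865 and 193 to 2057, and from 0 to 32 for the difference.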
